A study of Homo sapiens with 27 samples.

Results

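The 10 genes described here, FOS, FOSB, FOSL2, JUN, JUNB, JUND, EGR1, IER2, IER3 and KLF6, encode AP-1 subunits and other products of immediate early genes. They were chosen by symbol and are 10 of 20268 genes in the count table. Their mRNAs were measured by RNA-seq in 3 prostate cancer cell lines: LNCaP, which is androgen-sensitive, LNCaP95, an androgen-independent derivative of LNCaP, and 22Rv1, which is castration-resistant. Each line was transduced with lentivirus carrying either a control hairpin (CTRL sh) or a hairpin that targets CPSF1, of which there were 2 (named CPSF1 sh1 and CPSF1 sh2), then selected with puromycin and grown for 72 h after 500000 cells per well were seeded. The labelled puromycin dose for LNCaP and 22Rv1 cells was 2 ug per mL, and that for LNCaP95 cells is not given here. LNCaP95 cells were grown in medium free of phenol red, unlike the other lines, and all media held 10% serum. CPSF1 encodes the largest subunit of the cleavage and polyadenylation specificity factor, which forms the 3′ ends of mRNAs. Each of the 9 groups had 3 libraries, 27 in all, from infected and selected populations. The study describes the replicates as biological. Whether each came from a separate infection is not given in the sources used here, and p-values measure the spread between these libraries.

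Immediate early genes are transcribed within minutes of growth factor, stress or serum signals, without new protein synthesis, and many of their mRNAs decay fast. AP-1 is a dimer of basic leucine zipper proteins: JUN proteins (JUN, JUNB, JUND) pair with each other or with FOS proteins (FOS, FOSB, FOSL1, FOSL2), and bind the TPA response element or the cAMP response element. EGR1 is a zinc finger transcription factor induced through serum response factor, KLF6 is a zinc finger factor studied as a tumour suppressor in prostate cancer, IER2 is a nuclear early response protein, and IER3 acts in cell survival and ERK signalling.

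The sequence upstream of the start site is shown for 4 members, JUND, JUN, FOS and EGR1, to place the motif matches described next. RefSeq promoter entries (GRCh38.p14) matched 9 of the 10 members, and the 250 bases before the start are given 5′ to 3′ in the direction of transcription. Capitals mark TGACG (a cAMP response element half-site), TGACGTCA (the full element), TGACNTCA, which includes it, and the CArG box, the serum response element core; all were sought on both strands, and TGACGTCA holds TGACG on each strand.
JUND, chr19:18281623-18281872, minus strand: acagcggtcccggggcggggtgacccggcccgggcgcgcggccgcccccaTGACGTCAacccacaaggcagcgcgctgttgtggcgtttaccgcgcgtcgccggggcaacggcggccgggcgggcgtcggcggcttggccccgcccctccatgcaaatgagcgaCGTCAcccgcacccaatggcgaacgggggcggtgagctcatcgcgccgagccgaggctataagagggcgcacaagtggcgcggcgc
JUN, chr1:58784048-58784297, minus strand: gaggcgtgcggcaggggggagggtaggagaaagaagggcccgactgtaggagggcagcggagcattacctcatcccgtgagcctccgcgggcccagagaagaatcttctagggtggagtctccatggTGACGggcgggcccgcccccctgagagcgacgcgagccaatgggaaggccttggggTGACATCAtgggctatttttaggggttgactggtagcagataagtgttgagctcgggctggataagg
FOS, chr14:75278578-75278827, plus strand: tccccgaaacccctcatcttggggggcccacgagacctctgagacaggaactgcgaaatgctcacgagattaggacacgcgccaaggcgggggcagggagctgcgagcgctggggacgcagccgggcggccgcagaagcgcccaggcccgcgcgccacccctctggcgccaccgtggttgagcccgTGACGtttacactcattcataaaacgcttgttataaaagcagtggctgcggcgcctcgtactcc
EGR1, chr5:138465229-138465478, plus strand: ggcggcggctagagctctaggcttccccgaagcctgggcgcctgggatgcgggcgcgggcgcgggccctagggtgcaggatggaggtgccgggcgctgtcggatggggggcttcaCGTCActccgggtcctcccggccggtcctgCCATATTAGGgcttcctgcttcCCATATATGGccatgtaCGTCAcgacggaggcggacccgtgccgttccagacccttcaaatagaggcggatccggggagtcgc
JUND was the only matched member with TGACGTCA in this window, at -200 to -193 from the start, an element present in 1.65% of 35116 promoter windows of the same length. TGACNTCA was found in JUN (TGACATCA at -67 to -60), in KLF6 (TGACATCA at -172 to -165) and in JUND, against 6.87% of windows. TGACG lay in every matched member except KLF6, in FOS at -64 to -60, against 21.2% of windows. Within this window the CArG box occurred in EGR1 alone, at -105 to -96 and -83 to -74, against 1.16% of windows. Sites further upstream were not sought in FOS or any other member. TGANTCA, the TPA response element, was in none of the 9 windows and in 6.57% of all. These matches describe letters in the window and not bound sites.

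CPSF1 mRNA was lower with both hairpins in every line. In LNCaP cells it fell from 149.7 to 152 CPM (counts scaled to library size, TMM-normalized within a line) with CTRL sh to 86.2 to 108 CPM with CPSF1 sh, in LNCaP95 cells from 97.0 to 128 to between 57.1 and 68.2 CPM, and in 22Rv1 cells from 182 to 189 to between 111 and 141 CPM. These are falls of 1.57-fold, 1.85-fold and 1.41-fold, and the fall in LNCaP95 cells differed from that in 22Rv1 cells (adjusted p = 0.00255, edgeR interaction). Libraries held 8515624 to 15904518 counts. Among LNCaP95 CTRL sh libraries, replicates 1 and 2 were at a chi-square per degree of freedom of 5.03. The other CTRL sh pairs of that line were at 2.79 and 2.88. With each LNCaP95 library left out in turn, 6 or 7 members passed there with the hairpins pooled. For 22Rv1, CPSF1 sh1 replicate 3 stood apart, at a chi-square per degree of freedom of 6.98 and 4.37 from its 2 replicates, which were at 1.92 from each other. Without it 3 of 9 members again passed in 22Rv1 cells with the hairpins pooled: EGR1 (0.54), JUN (-0.35) and JUND (-0.68). The cell type marker levels that follow are CPM by library size alone, without TMM. All 8 luminal prostate markers exceeded 2 CPM in every library. Their summed level was 4958 to 5066 CPM with CTRL sh and 3744 to 3975 CPM with CPSF1 sh in LNCaP, 5752 to 5893 and 3989 to 4349 CPM in LNCaP95, and 2349 to 2382 and 2288 to 2455 CPM in 22Rv1 cells. Of 3 markers each for basal, fibroblast, leukocyte and neuroendocrine cells and 2 for endothelium, KRT5, TP63, COL1A2, PTPRC, CD3E, CDH5 and INSM1 did not exceed 0.379 CPM in any library. DCN stayed at 0 in the other lines and reached 1.37 CPM in 22Rv1, and CHGA lay between 2.44 and 6.49 CPM in 22Rv1. COL1A1 was above 10 CPM in every library of every line, and its list sum went from 21.8 to 26.2 CPM with CTRL sh to 13.3 to 16.5 CPM with CPSF1 sh in LNCaP cells, and for LNCaP95 from 54.2 to 69.5 CPM to 54.5 to 60.2 CPM with CPSF1 sh1 and 43.1 to 46.4 CPM with CPSF1 sh2. The endothelial sum, nearly all VWF, went from 22.3 to 28.03 CPM to 9.29 to 12.6 CPM in LNCaP cells, and the other way for LNCaP95, from 0.654 to 1.22 CPM to 1.75 to 4.39 CPM. The basal sum, mostly KRT14, went from 1.26 to 2.103 CPM to 3.75 to 6.25 CPM (LNCaP) and from 1.59 to 2.90 CPM to 2.51 to 6.08 CPM (LNCaP95). The neuroendocrine sum, mostly SYP, went from 77.6 to 85.9 CPM to 61.4 to 74.6 CPM in 22Rv1 cells. CD68 was the leukocyte marker that moved with knockdown, its list summing to 2.98 to 3.61 CPM with CTRL sh and 9.96 to 17.9 CPM with CPSF1 sh in LNCaP, to 6.25 to 9.05 and 16.7 to 35.1 CPM in LNCaP95, and for 22Rv1 to 0.938 to 1.64 CPM with CTRL sh, 1.84 to 2.83 CPM with CPSF1 sh1 and 6.51 to 7.16 CPM with CPSF1 sh2. The part of these markers in the results below was not tested. In bulk RNA, fewer cells expressing a gene and less RNA per cell cannot be told apart.

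The first question was how far the lines differ before CPSF1 knockdown. On a per-length scale (RPKM, that is CPM divided by exon length in kilobases, with TMM over all 27 libraries), JUND was the most abundant member in each line, and FOSB was among the lowest. JUND, whose product is usually regarded as the constitutive JUN protein, had 267 ± 36.5 RPKM (SD, n = 3) in LNCaP95 CTRL sh cells, against 93.6 ± 0.436 RPKM in LNCaP and 55.9 ± 4.65 RPKM for 22Rv1. The FOS level was 16.0 ± 2.44 RPKM in LNCaP95, with 1.79 ± 0.122 for 22Rv1 and 0.757 ± 0.387 for LNCaP. LNCaP95 cells carried the highest level of FOS, FOSL2, JUN, JUND and KLF6, with no overlap between its libraries and those of the other lines.

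**Figure D1:**
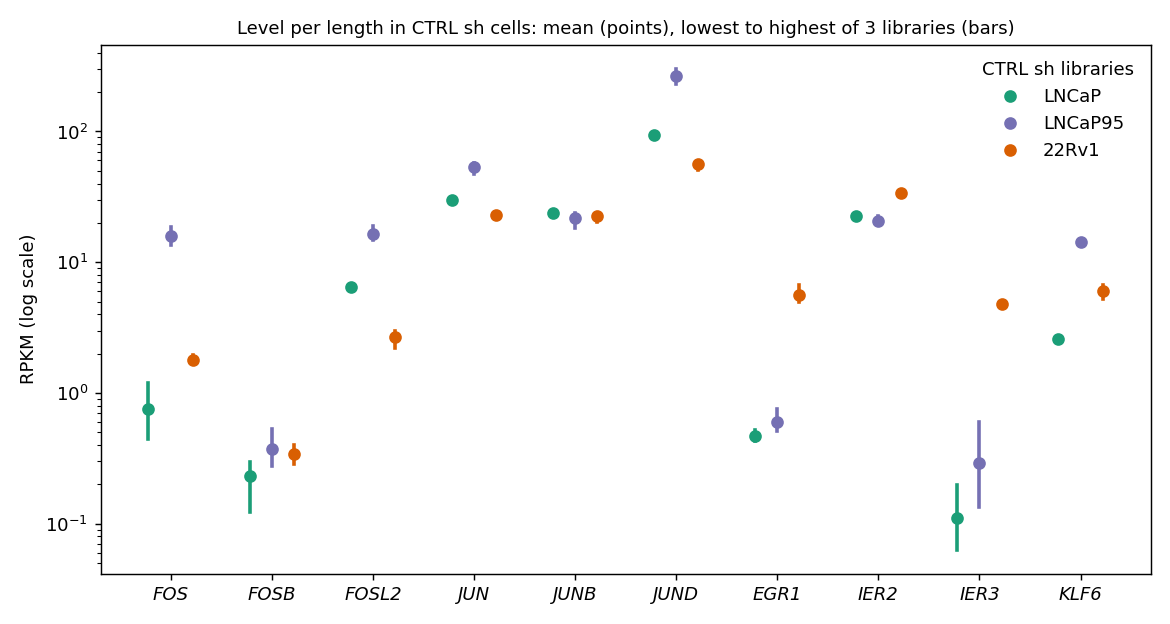
Level per length of the 10 members in CTRL sh cells of each line, as RPKM on a log axis; points are means and bars run from the lowest to the highest of 3 libraries. JUND reaches 267 RPKM in LNCaP95 cells, while EGR1 and IER3 lie higher in 22Rv1 cells (5.59 and 4.79 RPKM) than in the other lines.

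Of the members, 6 exceeded 2 CPM in all 9 CTRL sh libraries and were tested between lines with edgeR. Between LNCaP95 and LNCaP cells, 4 of 6 differed, all higher in LNCaP95, where 80.5% of all 10477 genes differed in either direction, 40.1% higher and 40.4% lower. They were higher 5.41-fold for KLF6, 2.82-fold for JUND, 2.56-fold for FOSL2 and 1.79-fold for JUN, with adjusted p-values from 3.80e-18 to 8.95e-12. JUNB (-0.15, adjusted p = 0.0890) and IER2 (-0.13, adjusted p = 0.0522) did not pass, and both passed with library size alone as the normalization. Between 22Rv1 and LNCaP cells 5 of 6 differed (82.7% of all genes, 40.0% higher and 42.6% lower): IER2 by 0.58 and KLF6 by 1.20 were higher in 22Rv1, and FOSL2 (-1.28), JUND (-0.76) and JUN (-0.40) were lower. Between 22Rv1 and LNCaP95 cells 5 of 6 differed (84.5% of all genes, 42.1% higher and 42.5% lower), with FOSL2 (-2.63), JUND (-2.25), KLF6 (-1.24) and JUN (-1.23) lower and IER2 (0.71) higher in 22Rv1. JUNB alone passed in no pair of lines, and its group means per length lay between 21.6 and 23.8 RPKM (libraries 18.3 to 25.0 RPKM). Between LNCaP95 and LNCaP cells JUNB did not pass under 7 of 9 single-library omissions and passed under the others. Counted in either direction, these shares of members are near those of all genes.

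The other 4 members were too low in at least 1 line for that test and were read from a fit with edgeR's filterByExpr, a looser expression filter. There, FOS was 21.4-fold higher in LNCaP95 than in LNCaP cells (adjusted p = 7.04e-20, edgeR), and 2.34-fold higher in 22Rv1 than in LNCaP cells (adjusted p = 4.81e-05, edgeR). EGR1 was 11.5-fold higher in 22Rv1 than in LNCaP cells and 9.18-fold higher than in LNCaP95 cells, and no difference was detected between the latter (log2 difference 0.33, adjusted p = 0.295, edgeR). IER3 had 61 to 79 counts in 22Rv1 CTRL sh libraries, 1 to 3 in LNCaP and 2 to 11 in LNCaP95, so that only its high level in 22Rv1 is measured with any precision. FOSB, which encodes a FOS protein, had 8 to 40 counts per CTRL sh library.

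The second question was how each mRNA changed with CPSF1 knockdown. Tests in this paragraph pool the hairpins, so that libraries of both hairpins count as replicates of the same condition. In LNCaP cells, 5 of 6 members tested passed the threshold of 0.05 on adjusted p, 2 higher and 3 lower, where 62.1% of all genes passed, 31.1% higher and 31.0% lower. In LNCaP95 cells 6 of 7 passed, all lower, where 66.9% of genes passed, 33.2% higher and 33.7% lower. In 22Rv1 cells 3 of 9 passed, 1 higher and 2 lower, where 26.9% passed, 12.7% higher and 14.3% lower. The median log2 fold change of the members tested was -0.16, -0.66 and 0.01 in the 3 lines in that order, beside -0.00036, 0.0013 and -0.0024 over all genes. Of the 7 members tested in LNCaP95 cells, none was higher at an unadjusted p of 0.05 by edgeR; EGR1, too low for this test, is given below. The even split of all genes in LNCaP95 cells depends on the normalization: with library size alone 4685 of 11143 genes were higher and 2850 lower (median 0.09), and the same 6 members were lower.

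**Figure D2:**
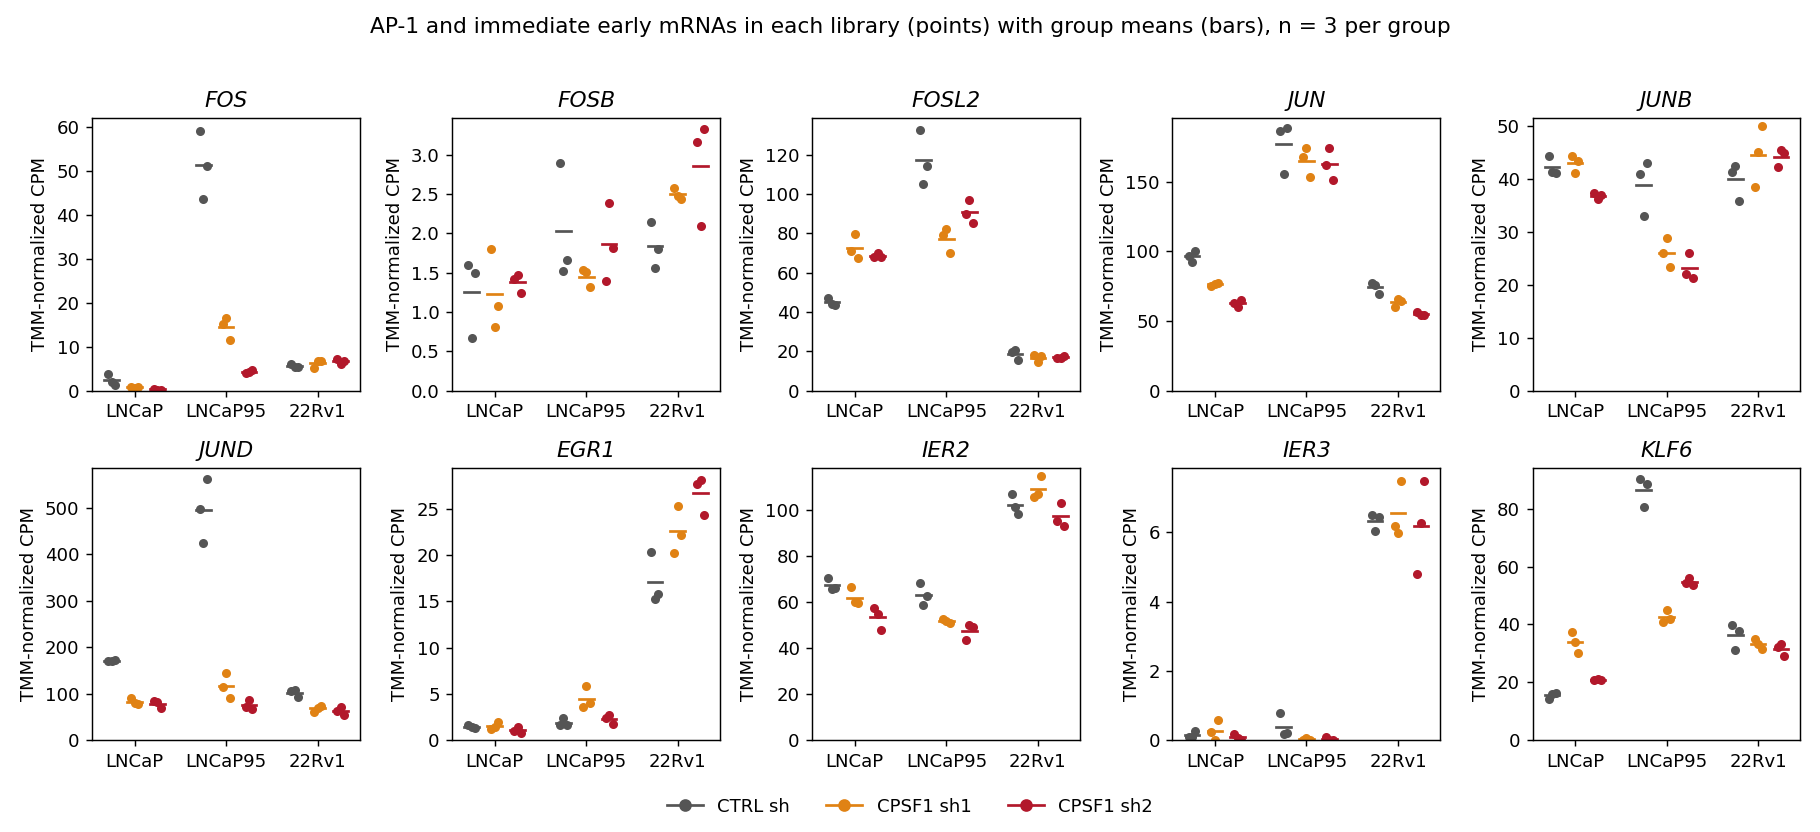
TMM-normalized CPM of each member in all 27 libraries; points are libraries, horizontal bars are group means (n = 3), and colours give the hairpin. JUND is lower in all CPSF1 sh libraries of each line than in the CTRL sh libraries, FOS falls from 43.6 to 59.0 CPM to at most 16.5 CPM in LNCaP95, and KLF6 moves up in LNCaP and down in LNCaP95 cells.

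JUND (chr19:18390563-18392432, minus strand, GRCh37, a gene with a single exon) was the only member that passed as lower in all 3 lines under both hairpins. In LNCaP95 cells it was at 496, 425 and 561 CPM with CTRL sh, at 114, 145 and 89.7 CPM with CPSF1 sh1, and at 70.2, 87.03 and 66.3 CPM with CPSF1 sh2. In LNCaP cells the CTRL sh libraries were at 170.3, 170.2 and 171 CPM, those with CPSF1 sh1 at 89.9, 79.2 and 77.1 CPM, and those with CPSF1 sh2 at 84.8, 82.6 and 68.2 CPM. For 22Rv1 the values were 105, 108 and 92.5 CPM with CTRL sh, 60.9, 69.9 and 73.1 CPM with CPSF1 sh1, and 62.6, 71.1 and 54.5 CPM with CPSF1 sh2. No CPSF1 sh library reached the lowest CTRL sh library of its line. By edgeR's quasi-likelihood test the fall was 5.15-fold in LNCaP95 (log2 fold change -2.36, standard error 0.19, adjusted p = 6.02e-07). For LNCaP it was 2.13-fold (-1.09, standard error 0.060, adjusted p = 1.78e-09), and for 22Rv1 1.56-fold (-0.65, standard error 0.082, adjusted p = 1.10e-04). The fall in LNCaP95 exceeded that in LNCaP (log2 difference -1.25, adjusted p = 8.11e-06) and that in 22Rv1 (1.71 for 22Rv1 minus LNCaP95, adjusted p = 9.80e-08, edgeR interactions), and the difference between 22Rv1 and LNCaP did not pass (0.46, adjusted p = 0.0859), except when 1 LNCaP95 library (CPSF1 sh1 replicate 2) was left out of the shared fit (0.46, adjusted p = 0.0266). Per length, JUND with CPSF1 sh1 had 44.6 ± 3.63 RPKM for LNCaP, 63.1 ± 14.9 for LNCaP95 and 37.3 ± 3.44 for 22Rv1 (SD, n = 3), where the highest LNCaP and the lowest LNCaP95 library were level at 48.76 RPKM and 22Rv1 lay below both lines. With CPSF1 sh2 it had 42.8 ± 4.92 RPKM for LNCaP, 40.4 ± 5.98 for LNCaP95 and 34.4 ± 4.53 for 22Rv1 (SD, n = 3), ranges that overlap.

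JUN (chr1:59246465-59249785, minus strand, also a single exon), the founding AP-1 subunit and the target of JNK, changed less. In LNCaP cells it went from 97.0, 92.3 and 100.2 CPM to 75.1, 76.8 and 77.4 CPM with CPSF1 sh1 and 63.2, 60.1 and 65.1 CPM with CPSF1 sh2. For 22Rv1, JUN went from 77.2, 75.8 and 69.4 CPM to 60.3, 65.9 and 64.1 CPM with CPSF1 sh1 and 56.2, 54.0 and 54.3 CPM with CPSF1 sh2. Groups did not overlap in either line, and JUN fell 1.39-fold in LNCaP (adjusted p = 5.86e-05) and 1.25-fold in 22Rv1 cells (adjusted p = 0.00336, edgeR). In LNCaP95 cells, CTRL sh libraries at 155 to 189 CPM overlapped CPSF1 sh libraries at 151 to 174 CPM, and the log2 fold change of -0.11 did not pass (adjusted p = 0.163, edgeR), although it did without CTRL sh replicate 2, the lowest of the 3 (-0.20, adjusted p = 0.0168). With CPSF1 sh1 alone, the fall in 22Rv1 cells (-0.23, adjusted p = 0.0107) was lost without CTRL sh replicate 1 (adjusted p = 0.0663) or 2 (adjusted p = 0.0568, edgeR). The JUN effect differed between LNCaP95 and LNCaP cells (0.38, adjusted p = 0.00401).

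JUNB, a JUN protein that often opposes JUN, fell 1.58-fold in LNCaP95 cells (-0.66, standard error 0.10, adjusted p = 1.22e-04, edgeR), from 32.9 to 42.9 CPM to 21.2 to 28.8 CPM, with no overlap. It did not pass in LNCaP (-0.09, adjusted p = 0.293) or 22Rv1 cells (0.15, adjusted p = 0.187). By hairpin, JUNB in LNCaP cells was lower with CPSF1 sh2 (-0.20, adjusted p = 0.00612, edgeR) but not with CPSF1 sh1 (0.02, adjusted p = 0.750). Its effect in LNCaP95 was lower than in LNCaP (-0.55, adjusted p = 7.44e-04) and 22Rv1 cells (0.80 for 22Rv1 minus LNCaP95, adjusted p = 8.11e-06, edgeR interactions). The gene overlaps HOOK2 on the opposite strand; the counts are strand-specific.

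With these changes the make-up of JUN family mRNA shifted, which is given as a description. In LNCaP95 cells JUND made up 77.9 ± 0.863% of summed JUN, JUNB and JUND RPKM with CTRL sh, 48.8 ± 4.17% with CPSF1 sh1 and 39.2 ± 1.65% with CPSF1 sh2 (SD, n = 3), and JUN rose from 15.8 to 39.7 and 48.3% of the sum. The sum itself went from 342 ± 44.6 to 128 ± 19.5 and 103 ± 10.8 RPKM. In LNCaP cells the JUND share was 63.6 ± 0.682, 48.4 ± 1.99 and 51.6 ± 3.35% in the same order, and in 22Rv1 cells 55.2 ± 0.408, 45.5 ± 0.137 and 45.0 ± 3.24%. In each line every CTRL sh library had a higher JUND share than every CPSF1 sh library.

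**Figure D3:**
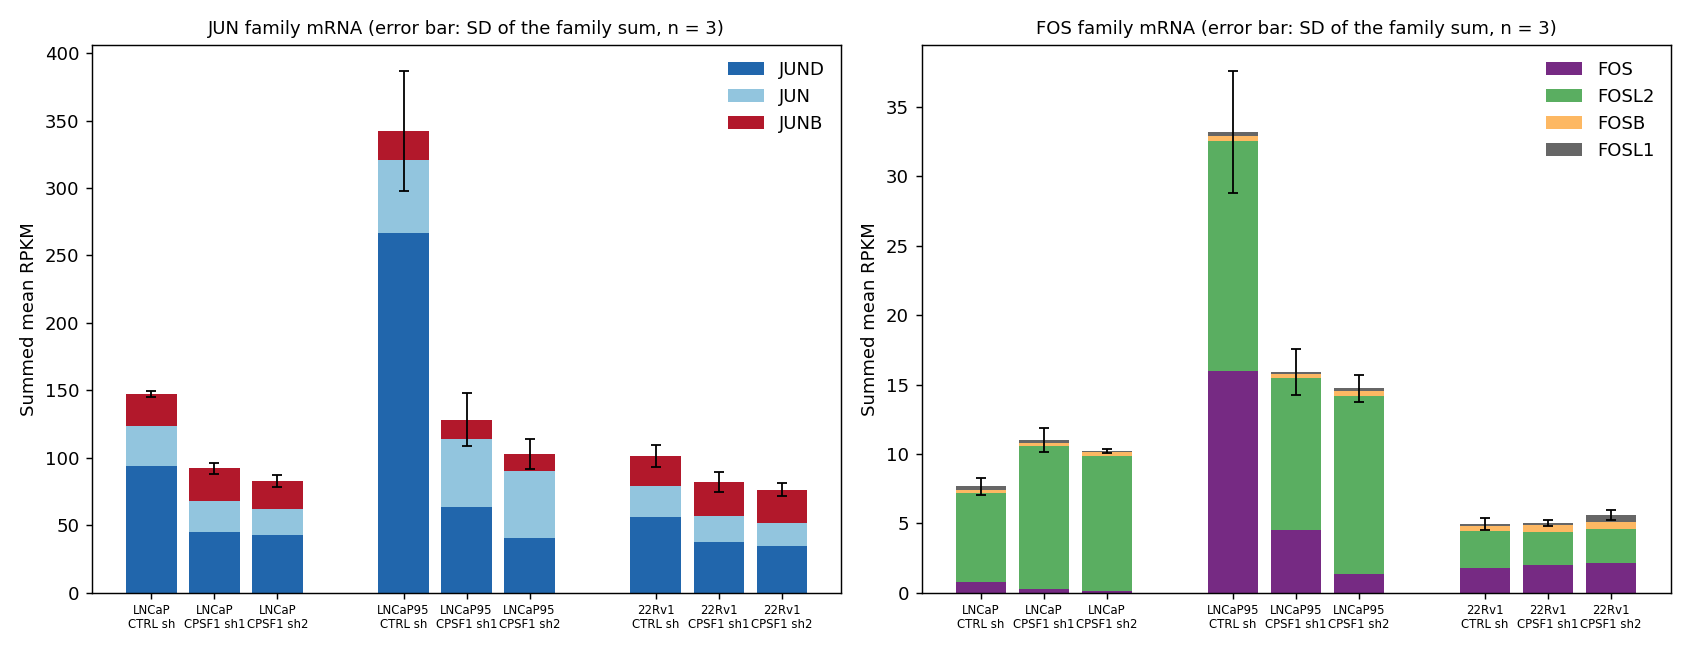
Mean RPKM of JUN family (left) and FOS family (right) mRNAs stacked by gene for each group; error bars are the SD of the family sum over 3 libraries. The JUN family sum in LNCaP95 cells drops from 342 to 128 and 103 RPKM, mostly through JUND, and the FOS family sum rises in LNCaP and drops in LNCaP95 cells.

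Among FOS proteins, FOS (chr14:75745477-75748933, plus strand), the archetype of a short-lived early mRNA, fell in LNCaP95 cells by about as much as JUND with the hairpins pooled (5.24-fold against 5.15-fold), by more with CPSF1 sh2 and by less with CPSF1 sh1. Its libraries there stood at 59.0, 43.6 and 51.2 CPM with CTRL sh, 15.3, 16.5 and 11.6 CPM with CPSF1 sh1, and 4.09, 4.28 and 4.64 CPM with CPSF1 sh2. The 3 groups did not overlap. FOS fell 3.53-fold with CPSF1 sh1 (adjusted p = 9.30e-12; JUND 4.24-fold) and 11.9-fold with CPSF1 sh2 (adjusted p = 7.36e-15; JUND 6.61-fold), and the hairpins differed by -1.75 on the log2 scale (standard error 0.17, adjusted p = 3.04e-07, edgeR), while CPSF1 itself was at 61.3 ± 6.01 and 61.5 ± 2.55 CPM (SD, n = 3) with these hairpins. In 22Rv1 cells FOS lay at 5.40 to 6.10 CPM with CTRL sh and 5.16 to 7.32 CPM with CPSF1 sh, overlapping ranges (log2 fold change 0.19, adjusted p = 0.288, edgeR). In LNCaP cells FOS had 40, 24 and 16 counts with CTRL sh, 8, 7 and 8 with CPSF1 sh1 and 5, 3 and 3 with CPSF1 sh2, and so missed the filter. There it clears filterByExpr only through the CTRL sh libraries, so that filter gives no fair test of the fall. In a fit that kept every gene with at least 1 count, which does not choose by group, the log2 fold change was -2.19 (standard error 0.40, adjusted p = 1.98e-04, edgeR), on 3 to 8 counts in each CPSF1 sh library. With filterByExpr over all 27 libraries, the FOS effect in 22Rv1 cells differed from that in LNCaP95 (2.61, adjusted p = 2.23e-05, edgeR interaction).

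FOSL2 (chr2:28615315-28640179, plus strand) encodes Fra-2, a FOS protein that lacks the strong activation domain of FOS. It moved in opposite directions in LNCaP and its derivative. In LNCaP cells it rose from 47.0, 44.0 and 43.7 CPM to 71.2, 79.6 and 67.3 CPM with CPSF1 sh1 and 68.0, 70.0 and 68.2 CPM with CPSF1 sh2. In LNCaP95 cells it fell from 133, 105 and 114 CPM to 79.1, 82.4 and 70.0 CPM with CPSF1 sh1 and 90.0, 97.0 and 85.2 CPM with CPSF1 sh2. In neither line did CTRL sh and CPSF1 sh libraries overlap. The rise in LNCaP was 1.58-fold (adjusted p = 2.61e-07), the fall in LNCaP95 1.40-fold (adjusted p = 4.59e-04), and the effects differed by -1.13 (standard error 0.12, adjusted p = 3.69e-09, edgeR). In 22Rv1 cells the fold change of -0.15 on the log2 scale did not pass (adjusted p = 0.278, edgeR).

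FOSB was above 2 CPM in too few libraries for the main test in any line. Counts per library were 8 to 20 for LNCaP, 15 to 40 for LNCaP95 and 17 to 36 for 22Rv1, with overlapping groups in each line. In 22Rv1 cells it was at 2.14, 1.56 and 1.799 CPM with CTRL sh and at 2.09 to 3.33 CPM with CPSF1 sh, a log2 fold change of 0.54 that did not pass with filterByExpr (adjusted p = 0.0693), although CPSF1 sh2 did (0.64, adjusted p = 0.0346, edgeR). FOSB overlaps ERCC1 on the opposite strand. FOS, FOSL2, FOSB and FOSL1 together summed to 33.2 ± 4.41 RPKM in LNCaP95 CTRL sh cells and to 15.91 ± 1.65 and 14.7 ± 0.969 RPKM with CPSF1 sh1 and CPSF1 sh2 (SD, n = 3). FOS supplied 48.1 ± 1.37% of this sum with CTRL sh, 28.4 ± 2.23% with CPSF1 sh1 and 9.26 ± 0.966% with CPSF1 sh2, and FOSL2 supplied 49.96, 69.0 and 87.3%. In LNCaP cells FOSL2 was already 84.2 ± 3.47% of the sum with CTRL sh.

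EGR1 (chr5:137801179-137805004, plus strand), a target of ERK signalling through serum response factor, was the only one of the 9 members tested in 22Rv1 cells that rose. It was at 20.3, 15.2 and 15.8 CPM with CTRL sh, 20.3, 25.3 and 22.2 CPM with CPSF1 sh1 and 27.7, 28.1 and 24.3 CPM with CPSF1 sh2. The highest CTRL sh library lay level with the lowest CPSF1 sh1 library, so that the groups overlap narrowly. The rise was 1.43-fold (log2 fold change 0.52, standard error 0.12, adjusted p = 0.00544, edgeR). By hairpin it was 1.31-fold with CPSF1 sh1 (adjusted p = 0.0266), a call lost without CPSF1 sh1 replicate 2 (0.30, adjusted p = 0.127) or without CTRL sh replicate 2 (0.31, adjusted p = 0.128) or 3 (0.34, adjusted p = 0.108), and 1.55-fold with CPSF1 sh2 (adjusted p = 4.17e-04, edgeR). In LNCaP95 cells EGR1 had only 22, 26 and 17 counts with CTRL sh, 59, 85 and 52 with CPSF1 sh1, and 26, 33 and 19 with CPSF1 sh2. With filterByExpr it was higher there with CPSF1 sh1 (1.23, adjusted p = 8.12e-05) and not detectably so with CPSF1 sh2 (0.27, adjusted p = 0.394), and the hairpins differed (-0.96, adjusted p = 0.00224, edgeR). In LNCaP cells it had 9 to 20 counts per library, with overlapping groups.

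KLF6 (chr10:3818188-3827473, minus strand) showed the same opposition as FOSL2. In LNCaP cells it rose from 14.4, 16.1 and 16.3 CPM to 37.4, 34.1 and 30.3 CPM with CPSF1 sh1 and 20.6, 21.1 and 20.8 CPM with CPSF1 sh2. In LNCaP95 cells it fell from 90.5, 80.7 and 88.7 CPM to 41.0, 45.2 and 41.8 CPM with CPSF1 sh1 and 54.4, 56.1 and 53.5 CPM with CPSF1 sh2. The 3 groups were separate in both lines. The log2 fold changes were 0.79 for LNCaP (standard error 0.19, adjusted p = 0.00210) and -0.84 for LNCaP95 (standard error 0.098, adjusted p = 1.07e-05), and they differed by -1.61 (standard error 0.20, adjusted p = 1.46e-07, edgeR interaction). In 22Rv1 cells KLF6 did not pass (-0.16, adjusted p = 0.149), but did without CTRL sh replicate 2 (-0.26, adjusted p = 0.0432, edgeR).

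IER2 fell 1.27-fold in LNCaP95 cells (adjusted p = 5.48e-04), where CTRL sh libraries at 58.9 to 68.0 CPM lay above CPSF1 sh libraries at 43.3 to 52.4 CPM. In LNCaP cells it fell 1.17-fold (adjusted p = 0.0139) with overlapping groups, and that call was lost without CTRL sh replicate 1 (-0.20, adjusted p = 0.0722, edgeR). By hairpin IER2 did not pass there with CPSF1 sh1 (-0.12, adjusted p = 0.0884) and passed with CPSF1 sh2 (-0.34, adjusted p = 7.99e-05, edgeR). In 22Rv1 cells it was at 98.3 to 107 CPM with CTRL sh and 93.1 to 115 CPM with CPSF1 sh (0.01, adjusted p = 0.904, edgeR). IER3 was measurable in 22Rv1 cells, at 6.05 to 6.51 CPM with CTRL sh and 4.79 to 7.50 CPM with CPSF1 sh (0.01, standard error 0.14, adjusted p = 0.983, edgeR). In LNCaP95 cells IER3 had 11, 2 and 2 counts with CTRL sh and 0 or 1 in each CPSF1 sh library, and 1 CTRL sh library holds most of them, so no fold is given.

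**Figure D4:**
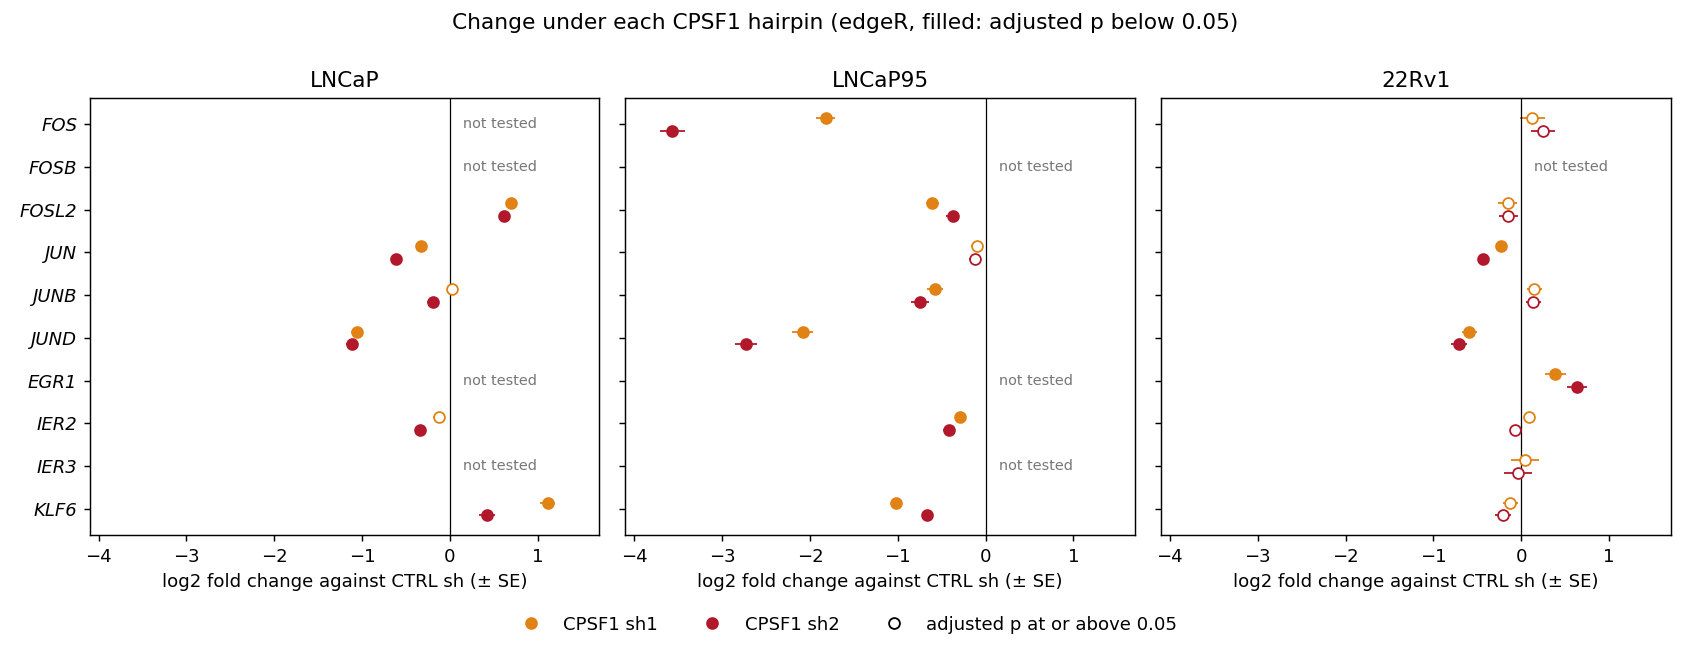
Log2 fold change of each member under CPSF1 sh1 and CPSF1 sh2 against CTRL sh in the 3 lines, with standard errors; filled points have an adjusted p below 0.05, and members at or under 2 CPM in any of a line's 9 libraries are marked as not tested. In LNCaP95 cells the CPSF1 sh2 points of FOS (-3.57) and JUND (-2.72) lie lowest.

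By hairpin, CPSF1 sh1 passed for 4 of 6 members (LNCaP), 6 of 7 (LNCaP95) and 3 of 9 (22Rv1), where 62.6%, 66.4% and 19.9% of all genes passed. CPSF1 sh2 passed for 6 of 6, 6 of 7 and 3 of 9, against 64.6%, 73.4% and 40.0% of all genes. No member passed in opposite directions under the 2 hairpins within a line. Compared directly, CPSF1 sh2 against CPSF1 sh1 gave 4 of 6 members in LNCaP cells, all lower with CPSF1 sh2 (14.8% of all genes passed in either direction, 8.24% lower). KLF6 had the largest of these differences (-0.70, standard error 0.082, adjusted p = 9.14e-06), followed by JUN (-0.29), JUNB (-0.22) and IER2 (-0.21). The JUNB and IER2 calls were lost with DESeq2 (adjusted p = 0.0686 and 0.0582) and under 2 and 4 of 9 single-library omissions. In LNCaP95 cells 4 of 7 passed (34.1% of all genes): FOS (-1.75) and JUND (-0.64, adjusted p = 7.90e-04) were lower with CPSF1 sh2, and KLF6 (0.36, adjusted p = 1.67e-04) and FOSL2 (0.23, adjusted p = 0.0206, edgeR) were higher, the FOSL2 call being lost under 2 of 9 omissions. In 22Rv1 cells JUN alone passed (-0.21, adjusted p = 0.0359, edgeR), where 11.3% of all genes passed. That call was lost with DESeq2 and with a replicate block. It was also lost under 6 of the 9 single-library omissions, with adjusted p-values up to 0.121 (edgeR).

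The knockdown effect differed between LNCaP95 and LNCaP cells for 5 of the 6 members above 2 CPM in all 27 libraries, where 50.9% of all 10317 genes passed. It differed for 3 of 6 between 22Rv1 and LNCaP cells (40.4% of all genes), namely FOSL2, KLF6 and IER2. The IER2 call was lost under 16 of 27 single-library omissions, and 2 members were called with a replicate block. Between 22Rv1 and LNCaP95 cells the effect differed for 5 of 6 (53.7% of all genes), all but JUN. There the FOSL2 call was lost under 7 of 27 omissions. The comparisons share libraries and are not independent of each other. These interaction fits pool the hairpins within a line, so that libraries of both hairpins count as replicates. No interaction was fitted by hairpin.

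Genes of the same pathway were counted from lists, beside the shares of all genes given above for the pooled hairpins (LNCaP 31.1% higher and 31.0% lower, LNCaP95 33.2% and 33.7%, 22Rv1 12.7% and 14.3%). Among 28 other early response genes, 23 could be tested in LNCaP95 cells, and 14 were lower and 1 higher, with a median log2 fold change of -0.64. The largest fall was that of PPP1R15A (-2.51, adjusted p = 3.12e-09, edgeR), a stress-induced phosphatase subunit. KLF10 was the gene that rose (0.50, adjusted p = 0.00418). In LNCaP cells 5 of 19 were higher and 7 lower with the hairpins pooled (median -0.11), near the shares of all genes. At the extremes were SGK1, a serum- and glucocorticoid-induced kinase (1.39, adjusted p = 3.62e-06), and KLF4 (-0.86, adjusted p = 8.14e-07, edgeR). With CPSF1 sh1 alone 5 were higher and 7 lower (median -0.05), where 3466 and 3475 of 11096 genes were. With CPSF1 sh2 alone 4 were higher and 10 lower (median -0.23), where 3558 and 3611 of 11096 genes were. In 22Rv1 cells 6 of 24 were higher and 0 lower (median 0.08; 7 and 1 at an unadjusted p of 0.05 by edgeR), led by PLK2 (0.79, adjusted p = 0.00924, edgeR). By hairpin, 3 were higher and 1 lower with CPSF1 sh1, where 8.79% of all genes were higher and 11.1% lower, and 8 and 2 with CPSF1 sh2, where 19.1% of all genes were higher and 20.9% lower. RHOB, which encodes a small GTPase, passed in all 3 lines, with -0.21 (LNCaP), -0.43 (LNCaP95) and 0.16 (22Rv1).

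Of 12 genes that damp MAP kinase signalling, 7 of 11 tested were lower and 2 higher in LNCaP95 cells, against 2 and 1 of 8 for LNCaP, and 1 and 3 of 11 for 22Rv1, where the hairpins gave unlike counts (1 lower and 1 higher with CPSF1 sh1, 1 and 7 with CPSF1 sh2, where 20.9% of all genes were lower and 19.1% higher). DUSP1, a nuclear MAP kinase phosphatase that is itself an early gene, fell 3.63-fold in LNCaP95 cells (adjusted p = 1.23e-08, edgeR). DUSP4 passed in every line, at -0.75 (LNCaP), -0.40 (LNCaP95) and 0.30 (22Rv1). Of 8 other AP-1 family bZIP genes, 3 of 4 tested were lower in LNCaP95 cells, 2 of 4 lower and 1 higher in LNCaP, and 0 of 5 passed in 22Rv1 cells by edgeR, also at an unadjusted p of 0.05 (median log2 fold change 0.12), while with CPSF1 sh2 alone 2 of 5 were higher (median 0.22), where 19.1% of all genes were higher. ATF3, a stress-induced partner of JUN, was at 0.26 in LNCaP (adjusted p = 0.00627) and -1.37 in LNCaP95 cells (adjusted p = 3.27e-06, edgeR), and JDP2, a repressor of AP-1, fell most in LNCaP cells (-1.15, adjusted p = 6.46e-07, edgeR).

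Upstream of these genes, with the hairpins pooled, 4 of 13 kinases were higher and 4 lower for LNCaP, and the same numbers for LNCaP95. For 22Rv1 2 were higher and 2 lower, and these pooled counts were all near the shares of all genes. By hairpin, CPSF1 sh1 gave 4 and 5 (LNCaP), 4 and 4 (LNCaP95) and 1 and 2 (22Rv1). Over all genes it gave 3466 and 3475 of 11096, 3683 and 3712 of 11143, and 1031 and 1307 of 11728. CPSF1 sh2 gave 6 and 2, 6 and 4, and 4 and 4. Over all genes it gave 3558 and 3611, 4072 and 4109, and 2241 and 2450. RPS6KA3, the ERK-activated kinase RSK2, rose in all 3 lines (0.76, 0.47 and 0.33, in the order LNCaP, LNCaP95, 22Rv1), while MAP2K1 and MAPK9 passed in all 3 lines in differing directions. Of 9 upstream transcription factors 2 were higher and 1 lower for LNCaP, and 3 and 4 for LNCaP95. For 22Rv1 the counts were 1 and 0 (1 and 1 at an unadjusted p of 0.05 by edgeR). In LNCaP cells CPSF1 sh1 alone gave 2 and 2, and CPSF1 sh2 alone 2 and 4, beside the all-gene counts by hairpin given above. ELK3 had the largest rise (1.13 in LNCaP95, adjusted p = 6.76e-05, edgeR). Of 8 proteins that bind AU-rich elements, the decay signals in many early mRNAs, 2 were higher and 3 lower for LNCaP, 2 and 3 for LNCaP95, and 0 and 2 for 22Rv1 (0 and 3 at an unadjusted p of 0.05 by edgeR). ZFP36L1 was lower in all 3 lines (-0.42, -0.28 and -0.27), and ZFP36, an early gene whose product promotes decay of such mRNAs, fell 2.60-fold in LNCaP95 cells (adjusted p = 2.40e-06, edgeR). Among 10 heat shock genes, as a sign of stress, 6 were higher and 1 lower for LNCaP, and 2 and 5 for LNCaP95. In LNCaP95 cells CPSF1 sh1 alone gave 2 and 6, and CPSF1 sh2 alone 4 and 5. In 22Rv1 cells 3 were higher and 1 lower. There CPSF1 sh1 gave 0 and 0 by edgeR (1 and 1 at an unadjusted p of 0.05) and CPSF1 sh2 3 and 3. Their summed level, by library size without TMM, was 4651 to 4891 CPM with CTRL sh and 5324 to 5874 CPM with CPSF1 sh in LNCaP cells. It was 3277 to 3651 against 3642 to 4273 CPM in LNCaP95 cells, and 4709 to 4889 against 4837 to 5192 CPM for 22Rv1. HSPA8, HSP90AA1 and HSPD1 hold most of these sums. With the hairpins pooled, HSPH1 rose most (1.31, adjusted p = 1.18e-05) and HSPA1A fell most (-1.58, adjusted p = 2.39e-04, edgeR) in LNCaP95 cells. HSPH1 and BAG3 passed in all 3 lines. The part of the heat shock genes in the changes above was not tested.

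**Figure D5:**
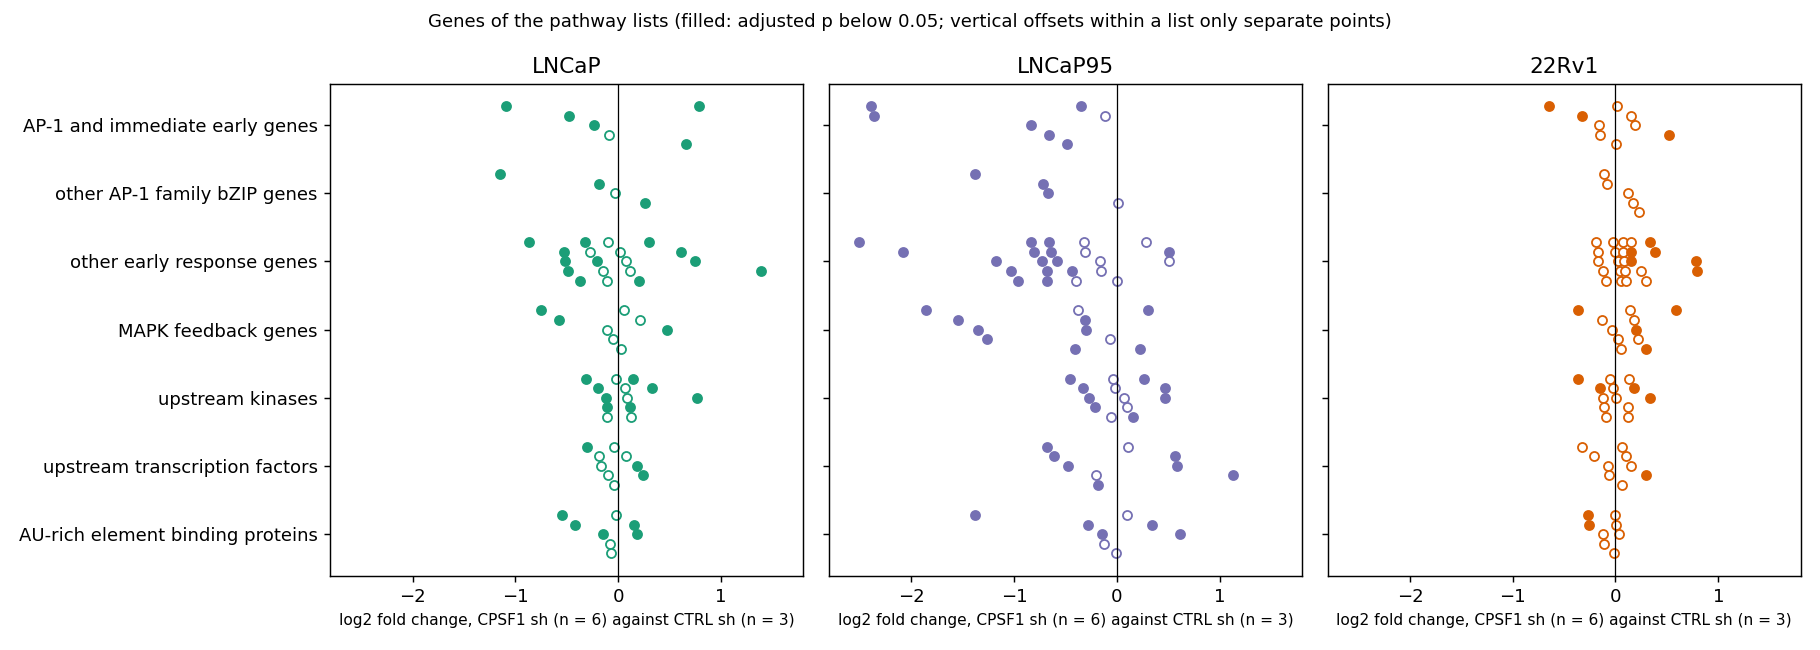
Log2 fold change of CPSF1 sh (n = 6) against CTRL sh (n = 3) for the members and for 6 lists of related genes, 1 panel per line; each point is a gene, filled where the adjusted p is below 0.05. In LNCaP95 cells the early response and MAP kinase feedback genes lie mostly below 0, down to -2.51 for PPP1R15A, whereas in 22Rv1 cells most points lie near 0.

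For FOS, JUN and EGR1, the genes with the most similar profile were sought among 10311 genes above 2 CPM in all libraries, by the root mean square difference of centred log2 CPM over the 9 group means, as a description. FOS and EGR1 did not themselves pass that filter. PLOD2 (0.86), KCNH2 (0.93) and TRAF5 (1.00) came nearest to FOS, against a median of 2.05 over all genes and a FOS range of 7.25. The low end of that range is LNCaP CPSF1 sh2, at 3 to 5 counts per library. SYTL1 (0.12), BOK (0.13) and CAMTA1 (0.14) came nearest to JUN, against a median of 0.70. BAI2 (0.35), DERL3 (0.42) and TEAD2 (0.43) came nearest to EGR1, against a median of 1.78.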

How the data were processed

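The authors sequenced stranded, poly(A)-selected libraries, aligned reads to GRCh37 with HISAT2 2.1.0 and counted reads, strand-specifically, on Ensembl 87 exons with Subread (2.0.3 in the submitters' processing notes). The deposited table holds raw counts per gene, without normalization, and exon lengths.

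Here, in R 4.3.3 with edgeR 4.0.16 (limma 3.58.1), genes whose CPM exceeded 2 in each library entering a fit were kept, TMM-normalized and tested by the earlier quasi-likelihood method, p-values being adjusted by Benjamini-Hochberg over all genes and a threshold of 0.05. The fits gave 18 comparisons: hairpins pooled, each hairpin, hairpin against hairpin, lines at baseline, and interactions. Standard errors come from the F statistic. Alternatives were DESeq2 1.42.0, RLE, library size alone, filterByExpr, no filter (at least 1 count), edgeR 4 quasi-likelihood, a replicate block and each library left out. Tests were checked on simulated data. There, far fewer genes changed than were called here, and the hairpins did not differ in the pooled fits. The check therefore does not cover those conditions.

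The members and lists were chosen with earlier results of these data known. Named list genes are those called in all 3 lines or with the largest rise or fall of their list in a line, and the 3 most similar genes were named for FOS, JUN and EGR1. The replicates differed beyond counting error (chi-square per degree of freedom 1.38 to 6.98). Precision is limited by counts, which reached 0 per library for IER3.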

Additional observations from a re-analysis of the deposited data

Results flagged for a closer look

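The knockdown effect differed between lines, by the edgeR interaction test over all 27 libraries, for these members, with no explanation weighed. Between LNCaP95 and LNCaP cells the log2 difference in effect was -1.13 for FOSL2, 0.38 for JUN, -0.55 for JUNB, -1.25 for JUND and -1.61 for KLF6. Between 22Rv1 and LNCaP cells it was -0.79 for FOSL2 (adjusted p = 4.88e-05), 0.26 for IER2 (adjusted p = 0.0483) and -0.94 for KLF6 (adjusted p = 8.78e-04). Between 22Rv1 and LNCaP95 cells it was 0.33 for FOSL2 (adjusted p = 0.0369), 0.80 for JUNB, 1.71 for JUND, 0.35 for IER2 (adjusted p = 0.00481) and 0.67 for KLF6 (adjusted p = 0.00345). The IER2 difference between 22Rv1 and LNCaP cells lost the call under 16 of 27 single-library omissions (adjusted p up to 0.128, edgeR). The FOSL2 difference between 22Rv1 and LNCaP95 cells lost it under 7 of 27 (adjusted p up to 0.175, edgeR). With the replicate block, 2 members rather than 3 were called between 22Rv1 and LNCaP cells. These interaction tests count the libraries of both hairpins in a line as replicates. With 3 libraries a group, no test for outlying values was made.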

How the results depend on the processing

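No called member changed direction under any alternative run. Of the 78 member results called in the report's fits, 75 remained called with DESeq2 and 78 with RLE and with edgeR 4 quasi-likelihood. Calls were lost and gained in 1 and 3 cases with library size alone, 1 and 5 without a filter, 1 and 1 with filterByExpr, 2 and 2 with the replicate block, and 43 and 15 over all single-library omissions. The number of members called changed by over 1.5 times in these cases. For CPSF1 sh2 against CPSF1 sh1 in 22Rv1 cells it went from 1 to 0 with DESeq2, 2 without a filter and 0 with the replicate block, and from 0 to 2 over single-library omissions. In LNCaP cells that comparison went from 4 to 2 with DESeq2 and from 2 to 4 over omissions. For CPSF1 sh1 in 22Rv1 cells, omissions gave 1 to 4, and for CPSF1 sh2 in 22Rv1 cells no filter gave 5 against 3. More members were tested without the filter or with filterByExpr, by construction, and 8 of 10 were called between 22Rv1 and either other line at baseline against 5 of 6, where filterByExpr called 11376 (LNCaP) and 11653 (LNCaP95) of 13636 genes. For the effect in 22Rv1 minus LNCaP95 cells, filterByExpr gave 8 against 5 and 6434 of 14441 genes. Each of these counts includes IER3, which clears filterByExpr only through 22Rv1 libraries, where it is high, so that they support nothing about the members. The level of JUND in LNCaP CTRL sh cells was 92.8 RPKM with library size alone. The cause of the other differences was not tested. The replicate numbers were not treated as pairs. Of 9 same-numbered pairs per line, 3 (LNCaP), 3 (LNCaP95) and 1 (22Rv1) had a correlation over 0.1. In LNCaP cells, CPSF1 sh1 and CPSF1 sh2 correlated at 0.24, 0.03 and 0.19 for replicates 1, 2 and 3. For CPSF1 sh2 against CPSF1 sh1 there, the block raised the genes called from 1639 to 2164 of 11096, with 4 members called in both fits. Otherwise the block moved counts of members by at most 1. It gave 5 members in LNCaP with CPSF1 sh1, 5 between LNCaP95 and LNCaP at baseline and 2 for the effect in 22Rv1 minus LNCaP.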
